A study of Homo sapiens with 12 samples.

Results

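The genes described here are 43 collagen chains, laminin chains, basement membrane linkers, microfibril proteins, matrix glycoproteins and proteoglycans, together with the collagen cross-linking enzyme LOXL2. They were chosen by name, from what their products do, with earlier results of these data known. Each of the 43 was found under 1 gene ID among the 60617 IDs of the deposited tables. RNA was sequenced from 769-P, a long-established human line of clear cell renal carcinoma, grown in RPMI1640 with fetal bovine serum. The 12 libraries form 4 groups of 3: cells given an siRNA (small interfering RNA) against the long noncoding RNA DRAIC (siDRAIC) or its control (siDRAIC-NC), and cells given an siRNA against hnRNPA2B1, an RNA-binding protein that reads methylated adenosines (sihnRNPA2B1), or its control (sihnRNPA2B1-NC). All groups share the cell line and the medium. An siRNA lowers its target for a limited time and does not remove the gene. The siRNA sequences, the time after transfection and the meaning of NC are not stated in the sources used. The labels number the libraries of a group without saying that they are separate cultures, so the p-values measure the spread between these libraries, which may be technical. The series title links DRAIC, hnRNPA2B1 and the growth factor receptor IGF1R, and the comparisons ask how transcripts differ between each siRNA and its own control.

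The extracellular matrix is built from proteins that cells secrete and assemble outside the membrane. Kidney tubule cells rest on a basement membrane, a sheet in which a laminin network and a type IV collagen network are held together by nidogens and perlecan. Fibrillar collagens such as type I give tensile strength to the stroma and are made mostly by fibroblasts. Fibrillin microfibrils and their latent TGF-beta binding proteins store the growth factor TGF-beta, and matricellular glycoproteins such as thrombospondin-1 change how cells adhere and can release it from storage.

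The promoter windows of 4 genes are shown. THBS1 and FBN1 had the smallest adjusted p among members in the siDRAIC experiment. A window free of annotated exons was found for 10 members. Among these, COL7A1 had the smallest adjusted p of the rises in the sihnRNPA2B1 experiment, and LAMA5 of the falls. TGFBI and LAMB3, outside those 10, had smaller ones. None of the 4 windows shown overlaps an annotated exon. Each is the 250 bases before the transcription start in RefSeq (GRCh38.p14), read 5′ to 3′ on the strand of the gene. Capitals mark matches, on either strand, to 6 motifs: the TATA box (TATAAA), the CCAAT box (CCAAT), the GC box (GGGCGG), the AP-1 site (TGANTCA), the TEAD core (GGAATG) and a SMAD-type element (CAGACA). The windows lie at chr15:39580829-39581078 on the plus strand for THBS1, chr15:48644971-48645220 on the minus strand for FBN1, chr3:48595330-48595579 on the minus strand for COL7A1 and chr20:62367313-62367562 on the minus strand for LAMA5.
THBS1: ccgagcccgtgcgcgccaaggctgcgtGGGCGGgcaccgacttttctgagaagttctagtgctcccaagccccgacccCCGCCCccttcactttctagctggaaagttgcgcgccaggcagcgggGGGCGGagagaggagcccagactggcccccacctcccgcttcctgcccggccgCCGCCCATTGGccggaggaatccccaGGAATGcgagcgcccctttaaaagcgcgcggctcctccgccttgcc
FBN1: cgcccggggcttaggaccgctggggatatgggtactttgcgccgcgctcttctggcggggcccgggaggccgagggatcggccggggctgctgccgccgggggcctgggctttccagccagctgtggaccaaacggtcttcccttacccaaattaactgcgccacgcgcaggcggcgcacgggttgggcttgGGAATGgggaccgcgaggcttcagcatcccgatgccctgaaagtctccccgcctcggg
COL7A1: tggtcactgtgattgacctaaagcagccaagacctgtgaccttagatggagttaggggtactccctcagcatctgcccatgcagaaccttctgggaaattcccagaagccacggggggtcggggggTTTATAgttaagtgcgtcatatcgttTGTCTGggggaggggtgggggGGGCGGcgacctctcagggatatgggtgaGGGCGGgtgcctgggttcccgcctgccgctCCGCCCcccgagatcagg
LAMA5: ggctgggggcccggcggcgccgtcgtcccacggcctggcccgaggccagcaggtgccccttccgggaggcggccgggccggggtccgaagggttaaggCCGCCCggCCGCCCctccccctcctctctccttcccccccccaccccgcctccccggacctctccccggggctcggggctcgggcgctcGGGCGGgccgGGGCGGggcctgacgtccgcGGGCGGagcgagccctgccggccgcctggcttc
The THBS1 window held 4 GC boxes, a CCAAT box that adjoins the last of them, and a TEAD core whose first base lies 46 bases before the start. The FBN1 window held a TEAD core 58 bases before the start and no other match. COL7A1 had a TATA box on the minus strand 124 bases before the start, 3 GC boxes and a SMAD-type element, and LAMA5 had 5 GC boxes. GC content was 69.6% in the THBS1 and FBN1 windows, 60.8% in COL7A1 and 82.8% in LAMA5.

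A promoter window was found for 33 of the 43 genes, and the first was used for the 4 genes with several. GC boxes were in 25 of the 33 (75.8%), against 53.7% of the 22199 windows of protein-coding genes and 42.6% of all 35116 windows. The TEAD core was in 5 of 33 (15.2%, COL12A1, FBN1, THBS1, THBS2 and SPARC) against 10.5% of protein-coding windows. SMAD-type elements were in 6 (18.2% against 12%), CCAAT boxes in 9 (27.3% against 32.7%), TATA boxes in 4 (12.1% against 9%) and AP-1 sites in 2 (6.06% against 5.36%). These are matches of letters in a fixed window and carry no measure of binding. COL4A1 and COL4A2, which encode partner chains, lie head to head on chromosome 13, with 126 bases between their starts.

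Library totals ran from 30798303 to 42760528 counts, so 3 counts, taken as the detection floor, equal 0.0702 to 0.0974 CPM (CPM is the count scaled to the library total in the usual way). HNRNPA2B1 was at 291 ± 16.7 CPM (SD, n = 3) with its siRNA and at 420 ± 21.0 CPM in the control. DRAIC was at the limit of detection: the siDRAIC libraries held 9 DRAIC counts in all and their controls 5, so a knockdown could not be detected from so few counts, and the group is written as the libraries labelled siDRAIC. Replicate 1 of siDRAIC-NC stood apart from its group: over genes, the chi-square divided by its degrees of freedom was 139.8 and 122.3 against the other libraries and 30.34 between those. Counts of changed genes in that experiment are therefore also given without it. Of the 12 listed markers of the labelled line, PAX8 (419 to 532 CPM), VIM (874 to 1780 CPM) and KRT8 (344 to 888 CPM) were high in every library. CA9, a hypoxia-induced marker of clear cell carcinoma, had at most 1 count. EPCAM, MME and AQP1 of the same list were low, with at most 40, 32 and 67 counts in a library. The whole list summed to 3220 to 3770 CPM in siDRAIC-NC and 3310 to 3730 CPM with siDRAIC. In sihnRNPA2B1-NC it summed to 1970 to 2030 CPM, and with its siRNA to 1970 to 2050 CPM. Fibroblast and pericyte markers summed to 18.2 to 27.1 CPM in siDRAIC-NC and 24.0 to 33.0 CPM with siDRAIC, and to 18.5 to 20.8 CPM in sihnRNPA2B1-NC and 20.0 to 21.5 CPM with its siRNA. DPT and PDPN, among the 9 of that list, were at 0 throughout, and PDGFRA, THY1 and FAP never passed 6 counts.

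The highest levels belonged to basement membrane genes, LOXL2 and fibronectin. Levels of different genes are compared only per length, as RPKM (CPM per kilobase of exons), and 22 of the 43 genes had a mean of 1 RPKM or more over the 12 libraries. COL18A1, the precursor of endostatin, came first at 108.5 RPKM, followed by LOXL2 at 101.2, the laminin chains LAMB1 at 89.9 and LAMC1 at 87.8, fibronectin (FN1) at 87.2, LAMA5 at 83.6 and COL4A2 at 77.4. Taken per length of the longest transcript instead of all exons, COL4A2 came first at 230 RPKM. COL7A1 (47.8 RPKM), NID1 (45.2), THBS1 (41.1), COL4A1 (40.5) and VCAN (32.8) formed the next tier. LAMB1 and LAMC1, neighbours in this order, differed by less than their spread: LAMB1 was at 73.3 ± 17.9 RPKM in siDRAIC-NC and LAMC1 at 79.4 ± 16.3 (SD, n = 3).

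Mean levels were below 0.1 RPKM for 10 of the 43 genes. COL1A2 and COL3A1 never passed 8 and 10 counts in a library, and COL1A2, the partner chain of COL1A1, was at 0 in 11 of 12 libraries. The small leucine-rich proteoglycans LUM, DCN and BGN had at most 4, 2 and 6 counts, POSTN 4, THBS2 8, LAMA4 2 and elastin (ELN) 12. These 9 genes were too low to be tested in any comparison.

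**Figure D1:**
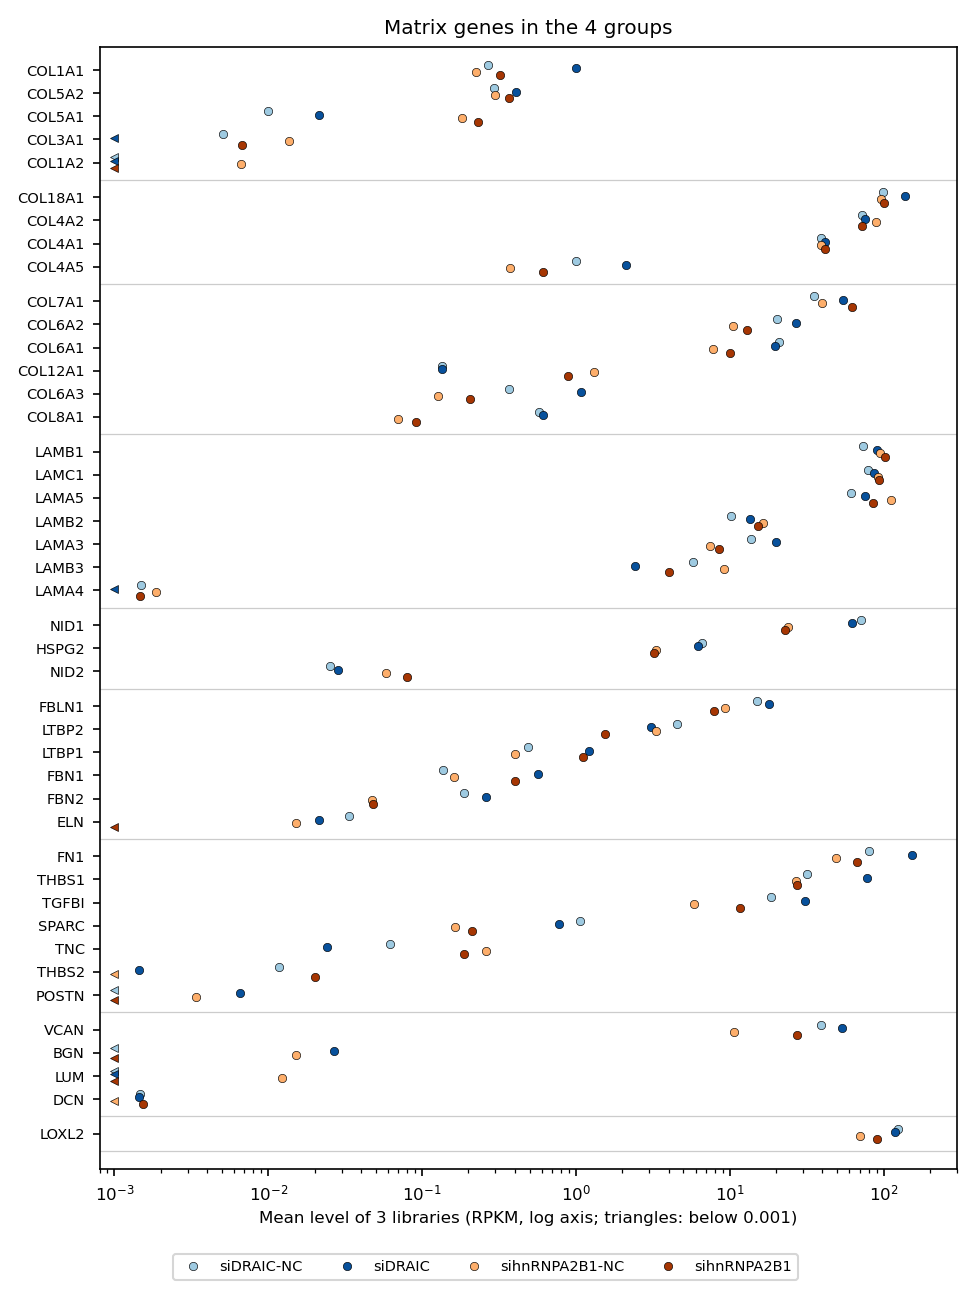
Mean level per length of each of the 43 genes in the 4 groups (RPKM, log axis, mean of 3 libraries), ordered by role and by level within a role. COL18A1, LOXL2, LAMB1, LAMC1, FN1, LAMA5 and COL4A2 average between 77.4 and 108.5 RPKM, and triangles mark values below 0.001.

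In the libraries labelled siDRAIC, 4 of the 32 tested genes rose against siDRAIC-NC and 0 fell: COL1A1, COL6A3, FBN1 and THBS1 (edgeR quasi-likelihood test, adjusted p below 0.05). That is 12.5%, beside 0.713% of all 15986 tested genes (0.582% higher and 0.131% lower). At an unadjusted p below 0.05 there were 13 higher and 2 lower, beside 1713 of the 15986 genes (1070 higher and 643 lower). DESeq2 called 7 members, all higher, beside 2.05% of all genes, and limma-voom 4, beside 0.457%. The median log2 fold change of the 32 was 0.34, against -0.00458 over all genes, and 23 of the 32 estimates were above 0. Same-numbered libraries of this experiment deviated together, and with the replicate number as a block 14 members were called, 12 higher and 2 lower, beside 8.78% of all genes (5.2% higher and 3.58% lower). Without the siDRAIC-NC library that stood apart, 10 were called, 9 higher and LAMB3 lower, beside 6.26% of all genes. Without siDRAIC-NC replicate 2 or replicate 3 there were 0 calls among the members in edgeR (13 at an unadjusted p below 0.05 in either case), beside 0.0542% and 0.0903% of all genes. Without siDRAIC replicate 2 there were 2 (FBN1 and THBS1, beside 0.188%), and without siDRAIC replicate 3 there was 1 (COL6A3, beside 0.139%).

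After hnRNPA2B1 siRNA, 12 of 34 tested members rose and 7 fell, which is 55.9% beside 30.4% of all 15710 tested genes (15.1% higher and 15.4% lower). The rises took in collagens (COL4A5, COL6A1, COL6A2, COL6A3, COL7A1), LAMA3, FBN1, LTBP1, FN1, TGFBI, VCAN and LOXL2. The falls took in COL4A2, COL12A1, the laminin chains LAMA5, LAMB2 and LAMB3, FBLN1 and LTBP2. In 1 fit of all 12 libraries 4 of the 34 were called (FBN1, LTBP1, LTBP2 and TGFBI), beside 1.66% of all genes. The median log2 fold change was 0.21 among the members and 0.00753 over all genes. The libraries of this experiment lie closer together, so smaller changes passed the test here than in the siDRAIC experiment. Fewer cells making a transcript and less transcript per cell cannot be told apart in these bulk libraries.

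Counting libraries instead of testing, 13 of the 32 members in the siDRAIC experiment had groups that did not overlap, 12 of them higher, where 15.6% of all genes did (9.75% higher and 5.86% lower). In the sihnRNPA2B1 experiment 22 of 34 did not overlap, 15 of them higher, beside 42% of all genes (23.7% higher and 18.3% lower).

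**Figure D2:**
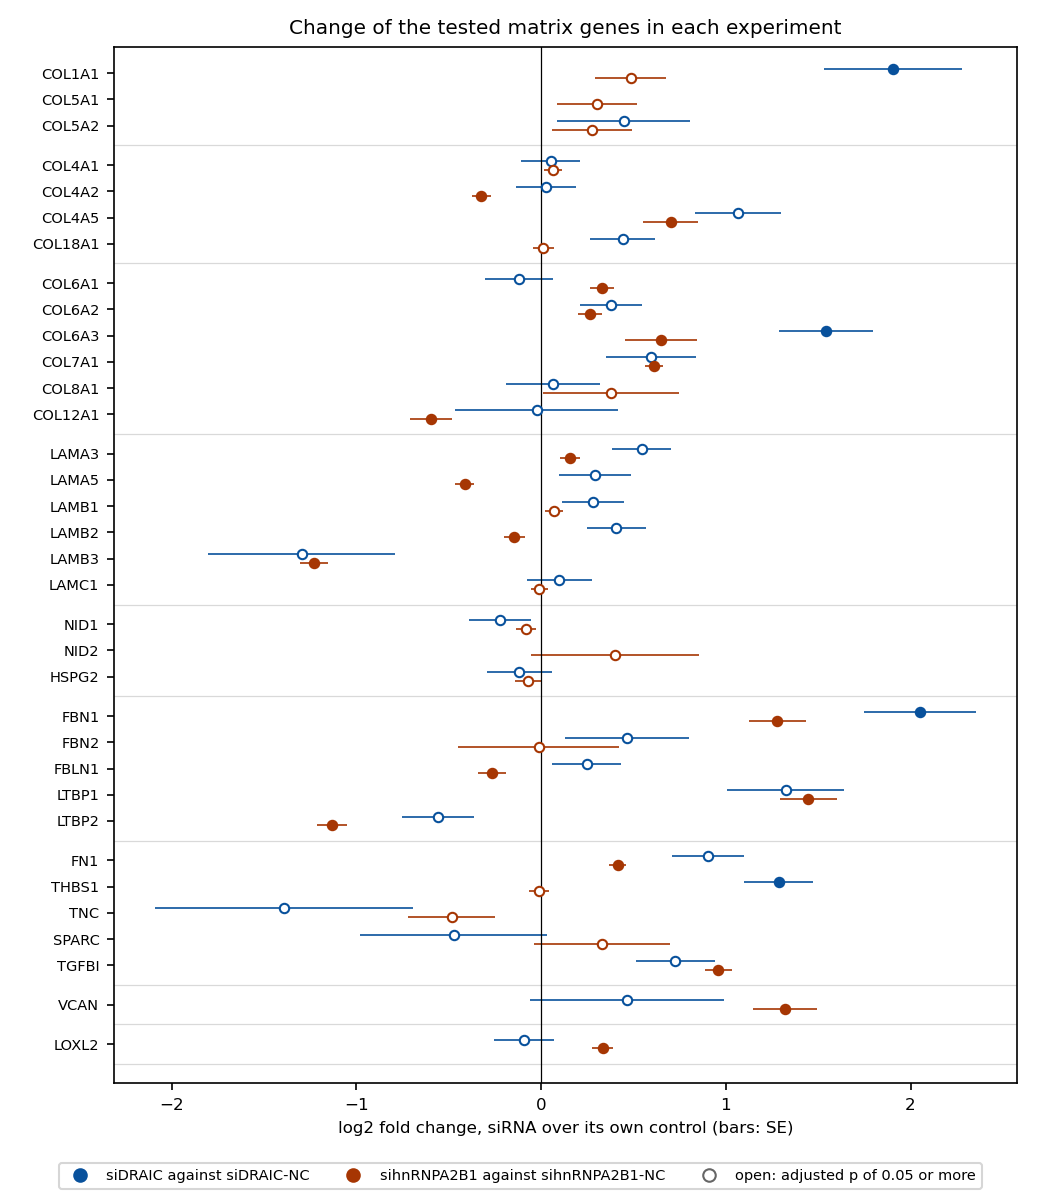
Log2 fold change of each tested member, siRNA over its own control, in both experiments (bars: SE), with filled points for an adjusted p below 0.05. FBN1 and COL6A3 are filled on the right in both, THBS1 is at 1.29 in the siDRAIC experiment and at -0.01 in the other, and LAMB3 lies to the left in both.

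Of the fibrillar collagens, 1 of 2 tested rose in the siDRAIC experiment. After hnRNPA2B1 siRNA 0 of 3 passed with edgeR, DESeq2 or limma-voom, and 1 had an unadjusted edgeR p below 0.05. COL1A1 (chr17:50183289-50201632, minus strand, GRCh38) encodes the main chain of type I collagen. It stood at 4.54, 1.503 and 1.86 CPM in siDRAIC-NC replicates 1 to 3 and at 13.4, 7.60 and 8.64 CPM in the libraries labelled siDRAIC. All 3 siDRAIC libraries were above all 3 controls, and the control that stood apart was the highest of its group. COL1A1 rose 3.75-fold in mean CPM, by 1.91 on the log2 scale (SE 0.375, edgeR adjusted p = 0.0462). The call was lost with RLE scaling, with a stricter low-count filter and when any library other than siDRAIC-NC replicate 1 was left out, where the adjusted p reached 0.238. With the replicate block the log2 fold change was 2.00 (edgeR adjusted p = 1.4e-14). Here and below, the size of a p-value with the block is not comparable with that of the main fit. After hnRNPA2B1 siRNA the COL1A1 values were 3.32, 3.17 and 2.99 CPM against 1.88, 2.29 and 2.42 CPM. Those groups did not overlap either, but the log2 fold change of 0.49 missed the threshold (SE 0.192, edgeR adjusted p = 0.0547). The counts behind COL1A1 are small, 292 in all in siDRAIC-NC and 1132 in the libraries labelled siDRAIC. COL5A2, a chain of type V collagen, was at 1.496 to 4.12 CPM in all 12 libraries and passed the test in neither experiment. COL5A1, its partner, held 13 counts in siDRAIC-NC and 216 in sihnRNPA2B1-NC and was tested only in the latter experiment, with a log2 fold change of 0.30.

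Of the 4 basement membrane collagens, 1 rose and 1 fell after hnRNPA2B1 siRNA. In the siDRAIC experiment 0 of 4 were called with edgeR (2 at an unadjusted p below 0.05, both higher), 0 with limma-voom, 1 with DESeq2 and 2 with the block. COL4A1 and COL4A2 form the type IV trimer found in almost every basement membrane, and COL4A5 belongs to the trimer of the glomerular basement membrane that is altered in Alport syndrome. COL4A5 (chrX:108439844-108697545, plus strand) was at 5.23, 3.66 and 4.31 CPM in sihnRNPA2B1-NC and 8.22, 6.17 and 7.46 CPM in sihnRNPA2B1. It rose by 0.70 on the log2 scale (SE 0.15, edgeR adjusted p = 0.000647), with no overlap between the groups. COL4A5 in the siDRAIC experiment was at 16.0, 8.59 and 11.2 CPM in the controls and 24.7, 28.4 and 22.0 CPM with siRNA. The groups were again apart, with a log2 fold change of 1.07 that missed the threshold (SE 0.233, edgeR adjusted p = 0.0617). It passed in 5 of 13 alternatives, among them the replicate block (edgeR adjusted p = 6.94e-07). The others were DESeq2, no filter, the fit of all 12 libraries and the fit without siDRAIC-NC replicate 1.

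COL4A2 (chr13:110305812-110513209, plus strand) moved the other way after hnRNPA2B1 siRNA. Its values were 1708, 1810 and 1627 CPM in the controls and 1356, 1391 and 1456 CPM with siRNA. The groups did not overlap and COL4A2 fell by 0.32 on the log2 scale (SE 0.0510, edgeR adjusted p = 1.41e-05). COL4A1, its head-to-head neighbour, was at 582, 584 and 563 CPM in the controls and 594, 621 and 634 CPM with siRNA. Its siRNA libraries were slightly above the controls, with a log2 fold change of 0.06 (SE 0.0494, edgeR adjusted p = 0.354). COL4A1 and COL4A2 of the siDRAIC experiment had log2 fold changes of 0.05 and 0.03, and the sign for COL4A2 turned when single libraries were left out. COL18A1 was at 767, 873 and 909 CPM in siDRAIC-NC and 1046, 1389 and 1081 CPM in the libraries labelled siDRAIC. The groups did not overlap, and the log2 fold change of 0.44 passed only with the replicate block (edgeR adjusted p = 0.381 without it and 0.0306 with it). After hnRNPA2B1 siRNA its log2 fold change was 0.01. COL18A1 shares 1401 bases of exon with SLC19A1 on the opposite strand (20.2 to 74.5 CPM by group), whose reads cannot be told apart if strand was not used.

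Of the 6 collagen VI, VII, VIII and XII chains, 1 rose in the siDRAIC experiment (2 with the block), and 4 rose and 1 fell after hnRNPA2B1 siRNA. COL6A3 (chr2:237324003-237414375, minus strand), the large chain of the type VI microfilament, was called in both experiments. It stood at 8.49, 7.49 and 5.54 CPM in siDRAIC-NC and 20.7, 26.6 and 15.8 CPM in the libraries labelled siDRAIC. Every siDRAIC library was above every control, and COL6A3 rose by 1.54 on the log2 scale (SE 0.253, edgeR adjusted p = 0.0189), a 2.93-fold ratio of means. Its call was lost without siDRAIC-NC replicate 2 or 3 or siDRAIC replicate 2, where the adjusted p reached 0.14. After hnRNPA2B1 siRNA the values were 4.73, 3.71 and 3.56 CPM against 3.05, 1.80 and 2.67 CPM. The groups lay close but did not overlap, and COL6A3 rose by 0.65 (SE 0.195, edgeR adjusted p = 0.0117), a call lost without sihnRNPA2B1-NC replicate 2 or sihnRNPA2B1 replicate 1.

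COL6A1 (chr21:45981737-46005050, plus strand) and COL6A2 (chr21:46098097-46132849, plus strand) encode the shorter chains of collagen VI and are neighbours on chromosome 21. COL6A1 was at 40.8, 40.9 and 42.7 CPM in sihnRNPA2B1-NC and 55.3, 52.4 and 52.4 CPM in sihnRNPA2B1. COL6A2 was at 55.9, 59.9 and 54.2 CPM in the controls and 71.8, 68.7 and 68.9 CPM with siRNA. Neither pair of groups overlapped, and COL6A1 rose by 0.33 (SE 0.0649, edgeR adjusted p = 0.000254) and COL6A2 by 0.27 (SE 0.0637, edgeR adjusted p = 0.00195). With siDRAIC the chains parted. COL6A1 was at 91.1, 118 and 125 CPM in the controls and 93.5, 109 and 111 CPM with siRNA, with a log2 fold change of -0.12. COL6A2 was at 98.2, 108 and 121 CPM against 130.3, 152 and 150.4 CPM, groups that did not overlap, with a log2 fold change of 0.38 that did not pass (SE 0.169, edgeR adjusted p = 0.437).

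COL7A1 (chr3:48564073-48595267, minus strand) encodes the anchoring fibril collagen that ties epithelial basement membranes to the tissue beneath. It was at 448, 440.0 and 431 CPM in sihnRNPA2B1-NC and 685, 678 and 699 CPM in sihnRNPA2B1. The siRNA libraries stood well clear of the controls, and COL7A1 rose 1.56-fold, by 0.61 on the log2 scale (SE 0.0484, edgeR adjusted p = 7.65e-11). Set beside this, COL7A1 in the siDRAIC experiment was at 316, 429.6 and 425 CPM in the controls and 395, 673 and 734 CPM with siRNA. The groups overlapped because siDRAIC replicate 1 lay below control replicates 2 and 3, and the log2 fold change of 0.60 passed only with the block (edgeR adjusted p = 0.388 without it and 0.00224 with it).

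COL12A1 (chr6:75084326-75206051, minus strand), a collagen that sits on the surface of fibrils, fell after hnRNPA2B1 siRNA. It was at 16.7, 14.4 and 18.2 CPM in the controls and 8.98, 12.3 and 11.9 CPM with siRNA. The groups did not overlap, and COL12A1 fell by 0.60 on the log2 scale (SE 0.113, edgeR adjusted p = 0.000163). COL12A1 in the siDRAIC experiment was at 0.795 to 3.10 CPM, with a log2 fold change of -0.02 whose sign turned with the libraries used. COL8A1, a network-forming collagen, was at 4.52 to 6.90 CPM in the siDRAIC experiment and 0.473 to 1.065 CPM in the other, and passed neither test.

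**Figure D3:**
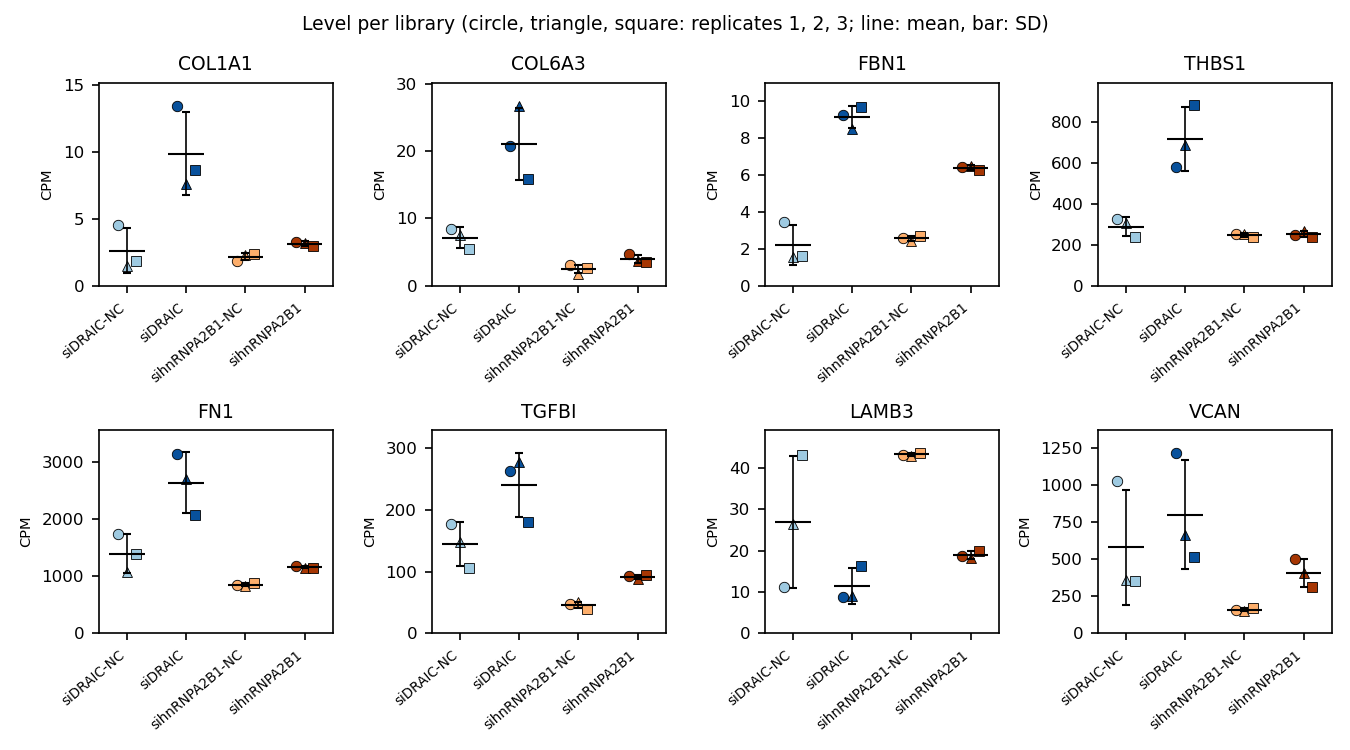
CPM of 8 members in each of the 12 libraries, with replicates 1, 2 and 3 as circle, triangle and square, the mean as a line and the SD as a bar. COL1A1, COL6A3, FBN1 and THBS1 are higher in all 3 libraries labelled siDRAIC than in all 3 controls, LAMB3 is lower in sihnRNPA2B1 with no overlap, and the siDRAIC-NC library numbered 1 is the highest control for VCAN and the lowest for LAMB3.

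Laminins are trimers of an alpha, a beta and a gamma chain, and after hnRNPA2B1 siRNA 1 of the 6 tested chains rose and 3 fell. LAMB3 (chr1:209614870-209652466, minus strand) and LAMA3 (chr18:23689443-23956222, plus strand) belong to the laminin of epithelial hemidesmosomes. LAMB3 was at 43.2, 42.9 and 43.6 CPM in sihnRNPA2B1-NC and 18.6, 18.1 and 19.9 CPM in sihnRNPA2B1. The groups were far apart, and LAMB3 fell by 1.23 on the log2 scale (SE 0.0752, edgeR adjusted p = 3.56e-13), to a ratio of mean CPM of 0.437. For siDRAIC the LAMB3 values were 11.3, 26.4 and 43.1 CPM in the controls and 8.75, 8.96 and 16.4 CPM with siRNA. The control that stood apart fell within the range of the siRNA group, and the log2 fold change of -1.30 passed only with the block (edgeR adjusted p = 0.415 without it and 1.14e-07 with it), without a filter or without that control.

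LAMA3 rose slightly after hnRNPA2B1 siRNA, from 108, 109.6 and 109 CPM to 132, 121 and 120.2 CPM. The groups did not overlap, and the log2 fold change of 0.16 (SE 0.0556, edgeR adjusted p = 0.033) was lost without sihnRNPA2B1-NC replicate 1, sihnRNPA2B1 replicate 1 or sihnRNPA2B1 replicate 2, without a low-count filter, with the block and in the fit of all 12 libraries. LAMA3 in the siDRAIC experiment was at 247, 164 and 191 CPM in the controls and 294, 293 and 299 CPM with siRNA. The siRNA libraries were above all controls, and the log2 fold change of 0.54 passed only with the block (SE 0.162, edgeR adjusted p = 0.185 without it and 0.00286 with it), in the fit of all 12 libraries or without siDRAIC-NC replicate 1.

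LAMA5 and LAMB2 are chains of the mature kidney basement membrane laminins. LAMA5 (chr20:62307955-62367312, minus strand) was at 1573, 1711 and 1492 CPM in sihnRNPA2B1-NC and 1209, 1222 and 1242 CPM in sihnRNPA2B1. All siRNA libraries were below all controls, and LAMA5 fell by 0.41 on the log2 scale (SE 0.0521, edgeR adjusted p = 4.91e-07). For LAMA5 the siDRAIC experiment's values of 888, 758 and 981 CPM in the controls and 965, 1376 and 913 CPM with siRNA overlapped (log2 fold change 0.29, edgeR adjusted p = 0.639). LAMB2 (chr3:49121114-49133118, minus strand) was at 112, 116 and 111 CPM in sihnRNPA2B1-NC and 103, 108 and 102 CPM in sihnRNPA2B1. LAMB2 fell by 0.14, at the threshold (SE 0.0560, edgeR adjusted p = 0.0497), and the call was lost with limma-voom, with either other filter, with the block and when any library except sihnRNPA2B1-NC replicate 3 was left out. The siDRAIC experiment had LAMB2 at 72.7, 69.6 and 66.3 CPM in the controls and 93.2, 100.2 and 87.1 CPM with siRNA, groups that did not overlap (log2 fold change 0.41, SE 0.160, edgeR adjusted p = 0.366). LAMA5 shares 244 bases of exon with ADRM1, which was at 81.0 to 134 CPM by group.

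LAMB1 and LAMC1, the most abundant beta and gamma chains, passed neither test. LAMB1 was at 748, 458 and 584 CPM in siDRAIC-NC, 797, 683 and 716 CPM in the libraries labelled siDRAIC, 763, 761 and 791 CPM in sihnRNPA2B1-NC and 867, 827 and 791 CPM in sihnRNPA2B1. LAMC1 had log2 fold changes of 0.10 and -0.01. Over the whole laminin group, 0 of 6 tested chains of the siDRAIC experiment were called with edgeR, DESeq2 or limma-voom, 3 had an unadjusted edgeR p below 0.05 (2 higher, 1 lower), and the block called LAMA3 higher and LAMB3 lower.

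The linkers of the basement membrane did not pass either test. NID1 (nidogen, which joins laminin to collagen IV) was at 442, 334 and 484 CPM in siDRAIC-NC and 376, 385 and 334 CPM in the libraries labelled siDRAIC. HSPG2 (perlecan) was at 130.0, 99.7 and 130.4 CPM against 111, 126 and 98.3 CPM. Both pairs overlapped, with log2 fold changes of -0.22 and -0.12. After hnRNPA2B1 siRNA their log2 fold changes were -0.08 and -0.07, and NID2, at 0.374 ± 0.111 CPM in the controls (SD, n = 3), had 0.40. NID2 shares 1915 bases of exon with RTRAF on the opposite strand (75.2 CPM in sihnRNPA2B1-NC, 97.2 CPM in sihnRNPA2B1). RTRAF reads cannot be told apart from NID2 reads there if strand was not used. With 0 of 2 and 0 of 3 linkers called by edgeR there were also 0 at an unadjusted p below 0.05 in both experiments, and 0 with DESeq2 and limma-voom in the siDRAIC experiment.

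Of the 5 tested microfibril genes, 1 rose in the siDRAIC experiment (2 rose and 1 fell with the block), and 2 rose and 2 fell after hnRNPA2B1 siRNA. FBN1 (chr15:48408306-48645849, minus strand) encodes fibrillin-1, the backbone of microfibrils. It was at 3.46, 1.55 and 1.60 CPM in siDRAIC-NC and 9.28, 8.51 and 9.69 CPM in the libraries labelled siDRAIC. All siRNA libraries were far above the controls, of which the one that stood apart was the highest. The counts behind FBN1 are also small, 246 in all in siDRAIC-NC and 1061 in the libraries labelled siDRAIC. Averaged over all 12 libraries, FBN1 was at 0.317 RPKM, COL1A1 at 0.455 and COL6A3 at 0.442. FBN1 rose 4.15-fold, by 2.05 on the log2 scale (SE 0.305, edgeR adjusted p = 0.0117). The call was lost without siDRAIC-NC replicate 2 or 3 or siDRAIC replicate 3, where the adjusted p reached 0.093. After hnRNPA2B1 siRNA FBN1 was at 6.46, 6.503 and 6.29 CPM against 2.60, 2.44 and 2.72 CPM. The groups were again clear of each other, and FBN1 rose 2.48-fold, by 1.28 on the log2 scale (SE 0.154, edgeR adjusted p = 2.16e-07).

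LTBP1 (chr2:32946972-33399509, plus strand) holds latent TGF-beta on microfibrils, and LTBP2 (chr14:74498170-74612378, minus strand) is a relative that binds fibrillin but not TGF-beta. LTBP1 was at 3.64, 2.54 and 2.67 CPM in sihnRNPA2B1-NC and 8.43, 8.79 and 7.30 CPM in sihnRNPA2B1. LTBP1 rose 2.77-fold with no overlap, by 1.45 on the log2 scale (SE 0.154, edgeR adjusted p = 2.43e-08). LTBP2 was at 30.9, 29.9 and 30.1 CPM in the controls and 14.0, 14.3 and 14.1 CPM with siRNA. It fell by 1.13 (SE 0.0816, edgeR adjusted p = 1.13e-11), to a ratio of means of 0.467, so that these relatives went in opposite directions.

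The pair had the same signs with siDRAIC. LTBP1 was at 5.37, 3.31 and 2.09 CPM in the controls and 9.14, 10.6 and 7.14 CPM with siRNA. LTBP2 was at 48.1, 32.8 and 42.1 CPM against 31.3, 29.2 and 23.9 CPM. Neither pair of groups overlapped. The log2 fold changes were 1.32 (SE 0.317, edgeR adjusted p = 0.091) and -0.56 (SE 0.195, edgeR adjusted p = 0.285), and both passed with the block (edgeR adjusted p = 2.61e-07 and 0.016). Both also passed in the fit of all 12 libraries. LTBP1 passed with DESeq2, without a filter and without siDRAIC-NC replicate 1 as well.

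FBLN1 (chr22:45502238-45601135, plus strand), fibulin-1, was at 65.8, 77.2 and 61.0 CPM in sihnRNPA2B1-NC and 55.7, 60.6 and 57.4 CPM in sihnRNPA2B1. The ranges nearly met, and FBLN1 fell by 0.27 (SE 0.0747, edgeR adjusted p = 0.00697), a call lost without sihnRNPA2B1-NC replicate 2 or sihnRNPA2B1 replicate 1. FBLN1 values in the siDRAIC experiment, of 108, 118 and 102 CPM and 136, 155 and 105 CPM, overlapped (log2 fold change 0.25, edgeR adjusted p = 0.687). FBN2 was at 1.503 to 3.98 CPM in the siDRAIC experiment and had log2 fold changes of 0.47 there and -0.01 in the other, neither called.

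Of the 5 tested adhesive glycoproteins, 1 rose in the siDRAIC experiment (3 with the block) and 2 after hnRNPA2B1 siRNA. THBS1 (chr15:39581079-39599466, plus strand) encodes thrombospondin-1, which binds many matrix proteins and can activate latent TGF-beta. It was at 324.5, 306 and 239 CPM in siDRAIC-NC and 578, 686 and 884 CPM in the libraries labelled siDRAIC. The siRNA libraries were all above the controls, and THBS1 rose 2.47-fold, by 1.29 on the log2 scale (SE 0.188, edgeR adjusted p = 0.0107). The call was lost without siDRAIC-NC replicate 2 or 3 or siDRAIC replicate 3, where the adjusted p reached 0.0952. After hnRNPA2B1 siRNA THBS1 was at 249, 269 and 240.0 CPM against 253, 252 and 239.7 CPM, groups that overlapped, with a log2 fold change of -0.01 (SE 0.0539, edgeR adjusted p = 0.913). Its GC-box and CCAAT promoter is printed above, and the genes whose exons overlap it were FSIP1, at 0.232 to 0.374 CPM by group, and an antisense gene at 0.

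FN1 (chr2:215360440-215436172, minus strand), fibronectin, is the most counted member. It was at 836, 833 and 876 CPM in sihnRNPA2B1-NC and 1178, 1148 and 1144 CPM in sihnRNPA2B1. FN1 rose by 0.41 with no overlap (SE 0.0462, edgeR adjusted p = 5.57e-08). In the siDRAIC experiment it was at 1732, 1065 and 1393 CPM in the controls and 3143, 2701 and 2078 CPM with siRNA. These groups were also apart, but the log2 fold change of 0.91 (SE 0.195, edgeR adjusted p = 0.0581) was called only with the block (edgeR adjusted p = 2.63e-08), with DESeq2, without a filter, in the fit of all 12 libraries and without siDRAIC-NC replicate 1.

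TGFBI (chr5:136028895-136063818, plus strand), an integrin-binding protein named for its induction by TGF-beta, was at 47.5, 50.1 and 39.8 CPM in sihnRNPA2B1-NC and 92.4, 87.3 and 94.0 CPM in sihnRNPA2B1. TGFBI rose 1.99-fold with no overlap, by 0.96 on the log2 scale (SE 0.0732, edgeR adjusted p = 3.74e-11). In the siDRAIC experiment it was at 178, 148 and 107 CPM in the controls and 263, 277 and 181 CPM with siRNA. The groups were narrowly apart, with a log2 fold change of 0.73 that passed only with the block (edgeR adjusted p = 0.175 without it and 3.44e-05 with it), without a filter, in the fit of all 12 libraries or without siDRAIC-NC replicate 1.

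TNC and SPARC, which modulate adhesion, were low and variable. TNC had log2 fold changes of -1.39 (SE 0.699) and -0.49 (SE 0.233), SPARC of -0.47 (SE 0.505) and 0.33, and none of these passed. TNC rested on 69 counts in siDRAIC-NC and 27 in the libraries labelled siDRAIC.

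VCAN (chr5:83471465-83582303, plus strand), versican, a large proteoglycan that binds hyaluronan, was the only tested member of the role group of VCAN, LUM, DCN and BGN. It was at 157, 149 and 171 CPM in sihnRNPA2B1-NC and 499, 407 and 315 CPM in sihnRNPA2B1. VCAN rose 2.56-fold with no overlap, by 1.32 on the log2 scale (SE 0.172, edgeR adjusted p = 0.00329). In siDRAIC-NC the library that stood apart held 1027 CPM, against 361 and 349.5 CPM in the other controls, and the libraries labelled siDRAIC held 1215, 665 and 517 CPM. The groups overlapped through that library, and the estimate was 0.46 on the log2 scale (SE 0.525, edgeR adjusted p = 0.825 without the block and 0.00391 with it). Without that library the estimate was 1.10 (edgeR adjusted p = 0.18), and with any other library left out it was 0.06 to 0.70.

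LOXL2, which oxidises lysines so that collagens cross-link, was at 409.5, 431 and 366 CPM in sihnRNPA2B1-NC and 534, 507 and 515 CPM in sihnRNPA2B1. LOXL2 rose by 0.33 with no overlap (SE 0.0565, edgeR adjusted p = 4.12e-05). LOXL2 values in the siDRAIC experiment, of 666, 697 and 774 CPM and 666, 749 and 618 CPM, overlapped (log2 fold change -0.09, edgeR adjusted p = 0.887).

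The experiments share no control libraries, so their calls can be set side by side. COL6A3 and FBN1 rose in both, which is 50% of the 4 calls in the siDRAIC experiment and 10.5% of the 19 in the other. Over all genes tested in both, 64 of the 100 genes called in the siDRAIC experiment were also called in the other, and 92.2% of those had the same direction (46 up, 13 down). With the replicate block in the siDRAIC experiment, 11 members were called in both and 0 in opposite directions. COL4A5, COL6A3, COL7A1, LAMA3, FBN1, LTBP1, FN1, TGFBI and VCAN were higher in both, and LAMB3 and LTBP2 lower in both. Over all genes the same fit gave 758 shared calls of 1324 and 4704, and 89.3% of them had the same direction.

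The effect of siDRAIC less the effect of hnRNPA2B1 siRNA was called for 1 of 34 members, THBS1, beside 0.211% of all 17091 genes. The difference was 1.26 on the log2 scale (SE 0.2, edgeR adjusted p = 0.0212), and with the block 1.25 (edgeR adjusted p = 0.00694). It was called by DESeq2 and limma-voom too, and was lost without siDRAIC-NC replicate 3 and without each of the 6 libraries of the sihnRNPA2B1 experiment in turn, with adjusted p-values up to 0.105. The direction held in each of these fits, with differences of 1.09 to 1.44. LAMA5 and LAMB2, which fell after hnRNPA2B1 siRNA, had differences of 0.67 and 0.52 that did not pass (edgeR adjusted p = 0.264 and 0.194). COL1A1 had a difference of 1.40 (edgeR adjusted p = 0.292) and VCAN of -0.88 (edgeR adjusted p = 0.731), and both passed with the block (edgeR adjusted p = 0.0175 and 0.0463), which called 1.51% of all genes.

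Most tested members also differed between the control groups. Between siDRAIC-NC and sihnRNPA2B1-NC, 22 of 34 members were called, 16 higher and 6 lower in siDRAIC-NC, beside 51.6% of all genes (26.6% higher and 25% lower). COL8A1 (log2 difference 3.06, edgeR adjusted p = 4.26e-07), SPARC (2.75, adjusted p = 0.000502), FBN2 (1.97, adjusted p = 0.00129), VCAN (1.84), TGFBI (1.66) and NID1 (1.60) were higher in siDRAIC-NC. COL5A1 (-4.11, adjusted p = 6.6e-06), COL12A1 (-3.28, adjusted p = 2.54e-06) and TNC (-2.02, adjusted p = 0.00299) were lower. COL12A1 averaged 1.68 ± 0.332 CPM in siDRAIC-NC and 16.4 ± 1.94 CPM in sihnRNPA2B1-NC (SD, n = 3). The control and the experiment it belongs to cannot be told apart, so levels are compared across experiments only as a description.

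Because collagen chains assemble in fixed trimers, the ratio of partner chains was followed in each library. COL4A1 over COL4A2 (RPKM) was 0.573, 0.584 and 0.570 in sihnRNPA2B1 and 0.446, 0.422 and 0.453 in sihnRNPA2B1-NC. The ratio was higher in every siRNA library (0.576 ± 0.0074 against 0.440 ± 0.0163, SD, n = 3, exact two-sided permutation p = 0.1, the smallest that 3 against 3 can give). In the siDRAIC experiment it was 0.551 ± 0.0472 against 0.541 ± 0.0114 (exact permutation p = 0.9).

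COL6A1 over COL6A2 was 0.724, 0.723 and 0.745 in the libraries labelled siDRAIC and 0.935, 1.10 and 1.04 in siDRAIC-NC. It was lower in every siRNA library (exact permutation p = 0.1), while after hnRNPA2B1 siRNA it was 0.771 ± 0.00511 against 0.739 ± 0.0534 (exact permutation p = 0.4). COL6A3 over COL6A1 was 0.0602, 0.0664 and 0.0388 in the libraries labelled siDRAIC and 0.0254, 0.0172 and 0.0121 in siDRAIC-NC, with no overlap (exact permutation p = 0.1). Of 12 such ratio tests, none could reach an adjusted p below 0.05 in this design. LAMB1 over LAMC1 stayed between 0.925 ± 0.132 and 1.09 ± 0.0541 across the groups. LAMB2 over LAMC1 was 0.163 ± 0.0042 in sihnRNPA2B1 and 0.179 ± 0.00767 in its control, with no overlap (exact permutation p = 0.1). In the siDRAIC experiment LAMB2 over LAMC1 was 0.160 ± 0.029 against 0.132 ± 0.0314 (exact permutation p = 0.3).

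**Figure D4:**
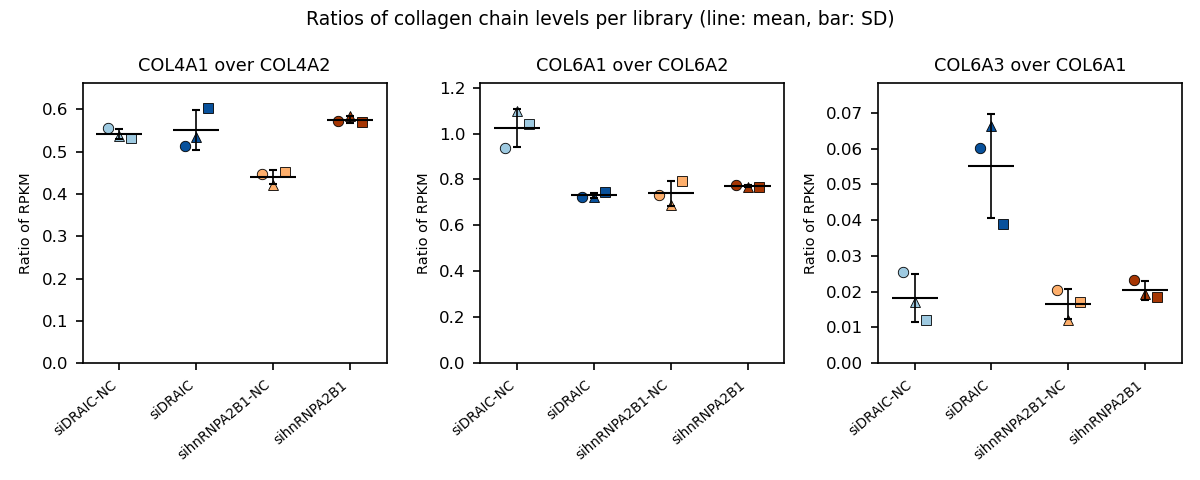
Ratio of RPKM between partner collagen chains in each library (circle, triangle and square: replicates 1, 2 and 3), with the mean as a line and the SD as a bar. COL4A1 over COL4A2 separates sihnRNPA2B1 (0.576) from its control (0.440), and both collagen VI ratios separate the libraries labelled siDRAIC from theirs.

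The summed share of the 43 genes was 10620, 8530 and 10080 CPM in siDRAIC-NC and 13050, 13580 and 11860 CPM in the libraries labelled siDRAIC. The siRNA libraries were above all controls, also with FN1 left out (9910, 10880 and 9784 CPM against 8883, 7464 and 8688 CPM). After hnRNPA2B1 siRNA the sums were 9605, 9481 and 9438 CPM against 9075, 9396 and 8821 CPM, and without FN1 they overlapped.

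The machinery around the matrix genes was read from 6 lists of related genes. Their edgeR counts stand beside 0.713% of all tested genes called in the siDRAIC experiment and 30.4% after hnRNPA2B1 siRNA. Among integrins and other matrix receptors, ITGB3 and ITGB8 rose in both experiments. In the siDRAIC experiment 2 of 24 tested receptors rose and 0 fell, ITGB8 from 8.37 to 25.0 CPM (log2 fold change 1.57, SE 0.247, edgeR adjusted p = 0.0142) and ITGB3 from 50.3 to 97.3 CPM (0.93, SE 0.174, edgeR adjusted p = 0.0365). ITGB8 pairs with alpha V to activate latent TGF-beta, and ITGB3 with alpha V binds fibronectin and vitronectin. After hnRNPA2B1 siRNA ITGB8 went from 3.94 to 13.4 CPM (edgeR adjusted p = 4.92e-11) and ITGB3 from 33.7 to 69.9 CPM (edgeR adjusted p = 1.28e-12). There 7 of 24 receptors rose and 9 fell, with ITGB4 from 6.93 to 13.5 CPM and ITGB5 from 266 to 208 CPM.

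Of the collagen maturation and secretion genes, 1 of 27 rose in the siDRAIC experiment, the procollagen C-proteinase BMP1, from 88.3 to 166 CPM (log2 fold change 0.89, SE 0.179, edgeR adjusted p = 0.0462). DESeq2 and the block called BMP1 too, and limma-voom called 0 of 27. After hnRNPA2B1 siRNA 2 of 27 rose and 7 fell, which is near the 30.4% called over all genes. BMP1 was again higher (119 to 148 CPM, edgeR adjusted p = 0.000469), while SEC24D, a coat protein for procollagen export, fell from 46.2 to 31 CPM (edgeR adjusted p = 1.75e-07), the prolyl hydroxylase P4HA2 from 51.1 to 39.6 CPM (edgeR adjusted p = 4.98e-05) and the tolloid-like proteinase TLL2 from 3.17 to 1.52 CPM (edgeR adjusted p = 0.000155).

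Other laminins and basement membrane proteins gave 0 calls among 10 in the siDRAIC experiment (edgeR, 1 at an unadjusted p below 0.05, and 0 with DESeq2 and limma-voom). After hnRNPA2B1 siRNA 2 of 8 rose and 4 fell, beside 30.4% of all genes. TINAGL1 fell from 314 to 190 CPM (edgeR adjusted p = 3.65e-11) and FRAS1 from 22.0 to 15.0 CPM (edgeR adjusted p = 1.59e-05). The netrin NTN4 rose from 179 to 254 CPM (edgeR adjusted p = 2.92e-08).

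Of other matrix glycoproteins, EDIL3, an integrin ligand, rose in both experiments, from 23.4 to 75.7 CPM (log2 fold change 1.69, edgeR adjusted p = 0.00712) and from 8.54 to 17.2 CPM (0.97, edgeR adjusted p = 4e-08). Of 26 tested, edgeR and limma-voom called EDIL3 alone in the siDRAIC experiment, DESeq2 called 4 higher and 1 lower, and the block 6 higher and 2 lower. After hnRNPA2B1 siRNA 6 of 26 rose and 5 fell, beside 30.4% of all genes. Among them were LTBP3 (318 to 434 CPM, higher), ECM1 (7.08 to 3.67 CPM, lower) and CCN1 (1730 to 1430 CPM, lower). Other collagens gave 0 calls among 13 in the siDRAIC experiment (edgeR, 3 at an unadjusted p below 0.05, and 0 with DESeq2 and limma-voom). After hnRNPA2B1 siRNA 2 of 10 rose, COL11A2 (1.27 to 3.58 CPM) and COL27A1 (82.4 to 102 CPM), and 2 fell, COL17A1 (1.48 to 0.468 CPM) and COL16A1 (1.71 to 0.959 CPM).

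Ligands, receptors and targets of TGF-beta gave 0 calls among 27 in the siDRAIC experiment (edgeR, 1 at an unadjusted p below 0.05, and 0 with DESeq2 and limma-voom). After hnRNPA2B1 siRNA 8 rose and 5 fell in a mixed pattern, beside 30.4% of all genes. The pseudoreceptor BAMBI (9.09 to 15.9 CPM, edgeR adjusted p = 3.62e-06) and the activin chain INHBA (104 to 136 CPM, edgeR adjusted p = 2.39e-05) rose. The feedback inhibitors PMEPA1 (853 to 687 CPM, edgeR adjusted p = 8.67e-06) and SMAD7 (120 to 100 CPM, edgeR adjusted p = 0.000157) fell. BAMBI was at 9.26 CPM in siDRAIC-NC and 5.86 CPM with siDRAIC, and its effects differed between the experiments by -1.498 on the log2 scale (siDRAIC less hnRNPA2B1 siRNA, SE 0.282, edgeR adjusted p = 0.0417). DESeq2 and the block also called this difference, and limma-voom did not.

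Stromal markers beside the collagen changes were low. PDGFRB, a pericyte and fibroblast receptor, was at 0.696 to 1.99 CPM in siDRAIC-NC and 1.82 to 6.15 CPM in the libraries labelled siDRAIC (log2 fold change 1.74, edgeR adjusted p = 0.154, called with DESeq2 and with the block). CSPG4 rose by 0.95 after hnRNPA2B1 siRNA (edgeR adjusted p = 0.0202), called also with limma-voom and the block but not with DESeq2. It never passed 72 counts in a library. Endothelial markers summed to at most 0.928 CPM and immune markers to at most 1.5 CPM in any library. The most abundant gene of the fibroblast and pericyte list was ACTA2, smooth muscle actin, at 13.1 to 24.1 CPM in siDRAIC-NC, 20.3 to 24.4 CPM with siDRAIC and 10.6 to 13.6 CPM in the other experiment. RGS5 was at 0.902 to 2.87 CPM in siDRAIC-NC, 1.24 to 1.30 CPM with siDRAIC and 5.56 to 7.07 CPM in the other experiment. The part of these markers in the collagen changes was not tested.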

How the data were processed

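The authors deposited raw read counts per Ensembl gene in a table for each siRNA experiment, with 60617 gene IDs, of which 60261 have a symbol. Coordinates and exon lengths come from GENCODE 29, which holds 58542 of them. The submitters' processing notes name the build hg38 and, as tools, STAR 2.7.10a, fastp 0.23.2, DESeq2 and StringTie. Per the labels' protocols, RNAiso Plus was used for total RNA and a TruSeq kit for the libraries. No source used here names the counting program, its annotation or its use of strand, so reads of genes that overlap on opposite strands cannot be told apart.

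The 6 libraries of an experiment were fitted with edgeR 4.0.16 (R 4.3.3, TMM scaling, filterByExpr at a minimum count of 10, robust quasi-likelihood test, two-sided). Adjustment was by Benjamini-Hochberg over all tested genes, and a gene is called changed at an adjusted p below 0.05. The difference between the siRNA effects and the comparison of the controls were fitted on all 12 libraries with 4 group means. SE was approximated by dividing the absolute log2 fold change by the root of F. CPM and RPKM were computed here from the counts. Ratios of chains were tested by exact permutation. Alternatives were RLE scaling, DESeq2 1.42.0, limma-voom (limma 3.58.1), no filter, a filter of 1 CPM in 3 libraries, all 12 libraries in the fit of an experiment, the replicate number as a block, and leaving out each library.

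Same-numbered libraries of the siDRAIC experiment deviated together from their group means (r = 0.489, 0.227 and 0.277 across genes, against -0.409 to 0.103 for other pairs), so there the numbers were taken to pair the libraries, as a reading of the data and not of the labels. In the sihnRNPA2B1 experiment they did not (r = -0.0117, -0.0242 and -0.0456). Yet the block moved p-values far there too, with nearly unchanged estimates. The edgeR adjusted p went from 3.56e-13 to 2.37e-40 for LAMB3 and from 0.00329 to 4.34e-81 for VCAN. It grew for others, from 0.033 to 0.0853 for LAMA3 and from 0.0497 to 0.118 for LAMB2. The size of a p-value with the block is therefore not read as added support from pairing.

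The members and lists were chosen with earlier results of these data known. Every member called in an experiment or in the difference is given in full, with the 3 most abundant of each role, and the others by counts and ranges. Of each related list, genes called in an siRNA comparison are named, at most 4 per comparison by smallest p. A gene that this rule would name is not reported here. Library totals (siDRAIC-NC 35221570 to 39921513, siDRAIC 36096920 to 42760528, sihnRNPA2B1-NC 30798303 to 39362360, sihnRNPA2B1 34064129 to 39367842) and the 3 libraries per group set the precision. Libraries of a group differed by more than sampling noise (chi-square over its degrees of freedom of 4.942 or more), so none was treated as a repeated deposit, which does not show that they are separate cultures. There were 0 unused columns of sample values. Promoter windows are from RefSeq GRCh38.p14.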

Additional observations from a re-analysis of the deposited data

Results flagged for a closer look

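The response of THBS1 differed between the experiments. The effect of siDRAIC less that of hnRNPA2B1 siRNA was 1.26 on the log2 scale (edgeR interaction contrast over 12 libraries, SE 0.2, adjusted p = 0.0212), and adjusted p-values ran from 9.35e-10 to 0.105 over the alternatives. All 3 libraries labelled siDRAIC were above all 3 of their controls for THBS1, whereas the sihnRNPA2B1 libraries overlapped theirs.

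BAMBI, of the related TGF-beta genes, also differed between the experiments, by -1.498 on the log2 scale (edgeR interaction contrast, SE 0.282, adjusted p = 0.0417), with means of 9.26 and 5.86 CPM in siDRAIC-NC and siDRAIC and of 9.09 and 15.9 CPM in sihnRNPA2B1-NC and sihnRNPA2B1. The call was lost with limma-voom and kept with DESeq2 and the replicate block. Its difference was not refitted with libraries left out.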

How the results depend on the processing

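Counts of called members in the siDRAIC experiment depended on the fit. Against 4 in the reported fit, there were 7 with DESeq2 (373 of all genes), 9 without a filter on low counts (520 of all genes), 10 with all 12 libraries in 1 fit (665 of all genes) and 14 with the replicate block (1404 of all genes). After hnRNPA2B1 siRNA the count was 19 in the reported fit, 17 with the replicate block (28.1% of all genes) and 4 (FBN1, LTBP1, LTBP2 and TGFBI) with all 12 libraries, whose shared spread includes the wider siDRAIC experiment. For the difference of effects it was 1 in the reported fit, 2 with DESeq2 (LAMB2 and THBS1), 4 without a filter and 3 with the replicate block. Leaving out 1 library at a time gave 0 to 10 calls in the siDRAIC experiment, 15 to 20 in the sihnRNPA2B1 experiment, 0 to 6 in the difference and 21 to 25 between the controls. The 6 in the difference came without siDRAIC-NC replicate 1 (COL1A1, COL6A1, FBN1, LAMA3, LOXL2 and THBS1), and where it gave 0 with edgeR, 7 to 10 members had an unadjusted p below 0.05. The cause of these shifts was not tested.

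Signs turned for 3 members near 0. COL4A2 in the siDRAIC experiment was -0.0106 with all 12 libraries (0.1056 at most, without siDRAIC-NC replicate 3), and -0.0372, -0.0366 and -0.0875 without siDRAIC-NC replicate 1, siDRAIC-NC replicate 2 and siDRAIC replicate 2. COL12A1 there was 0.0399, 0.0318, 0.187 and 0.296 without siDRAIC-NC replicate 1, siDRAIC-NC replicate 3, siDRAIC replicate 1 and siDRAIC replicate 2, and -0.7938 at the lowest, without siDRAIC replicate 3. THBS1 after hnRNPA2B1 siRNA was 0.0120, 0.00448 and 0.0206 without sihnRNPA2B1-NC replicate 2, sihnRNPA2B1 replicate 1 and sihnRNPA2B1 replicate 3, and -0.0564 at the lowest. No other sign turned among the 21 members called in an siRNA comparison or in the difference, the only ones whose fold changes were refitted. In the sihnRNPA2B1 experiment the number was not taken as a pairing, and the block took away LAMA3 and LAMB2. The control groups belong to different experiments, so no replicate block was fitted between them. With 1 library left out, that arm had 2 libraries. Depth limits the 9 untested members and COL5A1 and NID2, which were tested only in the sihnRNPA2B1 experiment and over all 12 libraries. Counts of members at 1 RPKM or more (22) and under 0.1 RPKM (10) were the same per length of the longest transcript.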
